A study of Oncorhynchus mykiss with 6 samples.

Results

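Among the small RNAs sequenced from rainbow trout liver, 15 of the 1427 sequences in the deposited table are predicted small RNAs longer than usual miRNAs. They were chosen by name and length alone: the name carries the prefix PC, which the table gives to sequences without the name of a known miRNA, and the sequence has 25 to 32 nt. They are 15 of 450 predicted sequences. Of the rest, 412 have 20 to 24 nt and 23 have 15 to 19 nt. All 6 libraries came from livers of juvenile wild-type Oncorhynchus mykiss, with Walbaum given as the strain: 3 from control fish (replicates 3, 4 and 6) and 3 from fish fasted for 4 days (replicates 3, 4 and 5). The comparison asks whether a short fast alters hepatic small RNAs. Whether the libraries of a group are different fish is not stated in the labels, so every p-value here refers to variation among libraries, which could be technical.

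A miRNA is cut from a hairpin in its primary transcript by Drosha and then by Dicer, which together set its ends and its narrow range of lengths. The arm nearer the 5′ end of the hairpin gives the 5p product and the other arm the 3p product. Sequences longer than this range can carry extra bases at either end of a mature miRNA, can be intermediates of its maturation, or can come from other RNA classes, such as fragments of longer structural RNAs or the piRNAs of the germline, which are longer than miRNAs and often begin with U. In mouse and zebrafish, miR-451, a miRNA of red blood cells, is matured without Dicer: Argonaute 2 cuts its hairpin and the longer product is then trimmed at its 3′ end. Genomic positions and matches to other RNA classes were not analysed here.

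The members fell into 2 kinds by sequence. Of the 15, 6 held, whole and unbroken, the sequence of a more abundant row named for a known miRNA, with extra bases at one or both ends. They are shown because the extra bases are what places them in this length range. Capitals mark the contained miRNA row and lower case the extra bases (5′ to 3′, DNA letters as in the table).
PC-5p-5952_123, holding dre-miR-451_R-1: AAACCGTTACCATTACTGAGTtttagc
PC-5p-13516_41, holding dre-let-7a: cgtggTGAGGTAGTAGGTTGTATAGTT
PC-5p-55543_5, holding ssa-miR-30a-5p: gtggTGTAAACATCCTACACTCTCAGCt
PC-5p-25412_17, holding ssa-miR-146d-5p: tTGAGAACTGAATTCCAAGGGTTgt
PC-5p-88033_3, holding ssa-miR-26a-5p: cacTTCAAGTAATCCAGGATAGGCT
PC-5p-81106_3, holding ssa-miR-26a-5p: tttgtTTCAAGTAATCCAGGATAGGCT

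Extra bases are counted from the ends of the contained row, which need not be the full reference miRNA. So counted, the miR-451 member was extended by 6 bases on the 3′ side only. The let-7a member and both miR-26a members were extended on the 5′ side only, by 5, 3 and 5 bases, and the members holding miR-30a-5p and miR-146d-5p on both sides. All 6 carry the label 5p, and in all 6 the contained row is a miRNA named as a 5p arm or without an arm. The seed of a miRNA, the stretch that pairs with its targets, is counted from the 5′ end. In the 5 members with extra 5′ bases the seed of the contained miRNA is therefore displaced from that place, whereas in the miR-451 member it is not.

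**Figure D1:**
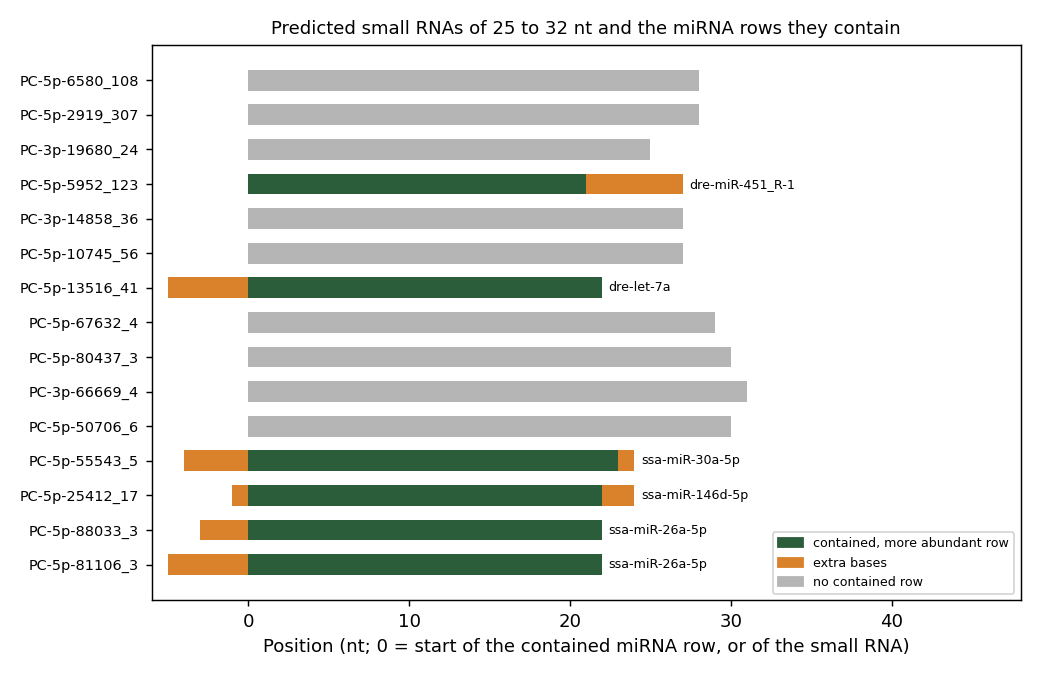
Each bar is 1 of the 15 members, drawn to scale in nt, with position 0 at the start of the contained miRNA row or, for members that hold none, at their own first base. Green marks the contained more abundant row, orange the extra bases and grey the 9 members without one. Of the 6, the miR-451 member alone is extended only on the right, by 6 nt beyond its contained row.

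The 4 extra bases GTGG stood next to the contained miRNA in the let-7a and the miR-30a-5p members, and the same 4 bases recurred before other miRNAs. Of all rows in the table, those that held a more abundant row with at least 4 extra bases on its 5′ side numbered 28. In 9 of them the 4 bases next to the contained row were GTGG, each time before a different row, among them let-7a, let-7b, miR-181a-5p, miR-25-3p, miR-21-3p and rows of the miR-30 family. No other 4 bases occurred there in more than 2 rows. In 4 of the 9 the base before was C, giving CGTGG. Only 8 rows of the table, or 0.561%, begin with GTGG, and 125, or 8.76%, hold it at any place. These numbers are not a separate background: all 9 rows are among the 125, and those without the C are among the 8. On the 3′ side, 2 of 63 rows with at least 4 extra bases ended in GTGG. That is the far end of the row and not the bases next to the contained row, so it is not a like comparison. The let-7a member was the most abundant of the 9, with 73 counts over the 6 libraries, and the others had from 0.5 to 32 counts. The source of the recurring bases was not tested, and the pattern was noticed in these data.

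The other 9 members held no more abundant row. The longest run that any of them shared with another row of the table was 12 nt, and the longest run complementary to any row was 11 nt over all 15 members. The 5 of these 9 that passed the count filter are printed in full because the comparison of the groups turns on them.
PC-5p-6580_108: gtccaatgattagaactctattgctgtt
PC-5p-2919_307: ttggaggattgagaaggtgtagcagctt
PC-3p-19680_24: cgtagttggatctcgggatcgagct
PC-3p-14858_36: ctgtgtgcacaatcctgggcctgcata
PC-5p-10745_56: tgcagatgatgagttatgagaatatct
The table gives none of them an annotation beyond the predicted arm. The rows PC-5p-67632_4, PC-5p-80437_3, PC-3p-66669_4 and PC-5p-50706_6 complete the 15.

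Lengths ran from 25 to 31 nt with a median of 27 nt, and neither 26 nor 32 nt occurred. The GC share ran from 33.3% in PC-5p-10745_56 to 73.3% in PC-5p-50706_6, with a median of 45.2%. C was the first base of 6 members, T of 5, A of 2 and G of 2. The first base was thus T in 33.3% of the members, against 47.8% of the 412 predicted rows of 20 to 24 nt and 26.1% of the 23 of 15 to 19 nt. A stood at position 10 in 3 members, and 1 member, PC-5p-81106_3, had both T first and A at position 10. That member is a miR-26a sequence with 5 extra bases. No member's first 10 bases were complementary to the first 10 bases of any row. Only the known and predicted rows of the table were searched, so a partner outside it could not be found. Both features, T first and such overlaps, are described for piRNAs. The label was 5p in 12 members and 3p in 3, so 80% were labelled 5p, against 49.3% of the predicted rows of 20 to 24 nt and 39.1% of those of 15 to 19 nt. Those 12 include the 6 members that hold a more abundant row, all of them labelled 5p. Weighted by counts the order against the 15 to 19 nt rows turned, with 82.8% of the members' counts and 91.2% of those rows' counts labelled 5p, a mean difference of -8.45 percentage points. The 15 to 19 nt rows include PC-5p-171_12656, labelled 5p, whose levels are given below. A more abundant row was held by 40% of the members, by 4.85% of the predicted rows of 20 to 24 nt and by 80.3% of the 137 rows of 25 to 32 nt that carry a known name. A longer sequence has more room to hold another, so these shares differ by length as well as by class. At the same length the share also depends on how rows were named, since rows with a known name are named for a known miRNA.

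Weighted by counts, the members were more often labelled 5p than the predicted rows of 20 to 24 nt in all 6 libraries, with 82.8% ± 5.16 against 48.7% ± 6.98 (SD over 6 libraries). They began with T less often in all 6 libraries, at 24.4% ± 6.12 against 39.9% ± 3.53. With every detected row weighted equally these differences were 28.9 and -16.8 percentage points, against 34.0 and -15.4 weighted by counts. Weighted by counts, the GC share was also lower in all 6 libraries, with a mean difference, members less predicted rows of 20 to 24 nt, of -2.71 percentage points. With equal weights it turned to 2.66, so its direction depended on the weighting. Against the predicted rows of 15 to 19 nt the GC difference was -6.64 by counts, below 0 in all 6 libraries, and -8.53 with equal weights. The 6 libraries read the same sequences, so these are descriptions of the repertoire and not replicated tests of it.

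The libraries differed in depth and composition. The table's counts came to between 737686 and 4203708 per library, and 3 counts, the upper limit behind a value of 0, corresponded to between 0.810 and 3.66 CPM (counts per 1000000, TMM-scaled to adjust for composition). Fasted replicate 3 stood apart: 15.1% of its mappable reads were in the table, against 34.9 to 61.0% in the other 5 libraries, its TMM factor was 1.64 against 0.762 to 1.21, and rows named mir-7641 took 1.78% of its counts against 0.0112 to 0.326%. The hepatocyte markers miR-122, miR-192 and miR-194 held 36.6 to 44.2% of the counts in every library. Erythrocyte markers held 0.114 to 0.898%, with no row named miR-486, leucocyte markers 0.0714 to 0.280% and muscle markers at most 0.0167%. The rows of miR-430 and miR-202, listed beforehand as germline markers, held at most 0.00192%. Of these miR-202 had 0 counts in each control library and 1, 0 and 2 in fasted replicates 3, 4 and 5. The share is thus nearly all miR-430 and is not a measure of germline content.

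All members were rare. Together they had 1598 counts over the 6 libraries. In the order of replicates 3, 4 and 6 their sum was 479, 69 and 263.5 counts in the control libraries. In the fasted libraries, in the order 3, 4 and 5, it was 354, 168 and 264.5 counts. Groups of values below keep these orders. The most abundant member, PC-5p-6580_108, had 629 counts, or 39.4% of all, and the 6 most abundant together 91.8%. At the other end 6 members had fewer than 10 counts in all. Counts above 0 in every library were reached by 7 members. Just outside the length limit, the 19 predicted rows of 24 nt had a median of 13.5 counts and a highest total of 1067 (PC-5p-10117_60), and just inside it the 3 members of 25 nt had a median of 8.5 and a highest of 144 (PC-3p-19680_24).

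As a share of the table's counts, the members summed to 114, 70.2 and 62.9 per 1000000 in the control libraries and to 480, 117 and 222 per 1000000 in the fasted ones. This share is not scaled for composition, unlike the CPM of single members, and a TMM-scaled sum was not computed. Library totals as the only scaling moved the median log2 fold change of all tested rows from 0.01 to 0.59. On this unscaled share the groups did not overlap, but fasted replicate 4 and control replicate 3 nearly met. Their 95% Wilson intervals, which cover counting error only, were 101 to 136 and 104 to 125 per 1000000. Per 1000000 mappable reads the values were 51.3, 39.6 and 38.3 in control and 72.2, 56.0 and 77.6 in fasted liver, again without overlap. Against the counts of all predicted rows the direction turned: the members made up 4.14, 4.83 and 4.16% of them in control and 3.39, 4.60 and 4.00% in fasted liver. That denominator includes PC-5p-171_12656, a predicted row of 15 to 19 nt and so not a member. It had 1210, 226 and 431 CPM in control and 6077, 1304 and 2582 CPM in fasted liver. The members' share of the predicted counts without this row was not computed. The shares of all predicted rows in the table were 0.275, 0.145 and 0.151% in control and 1.41, 0.255 and 0.555% in fasted liver. That share was likewise highest in fasted replicate 3, and its groups overlapped. Predicted rows of 24 nt, just outside the length limit, summed to 77.1, 64.6 and 76.3 per 1000000 table counts in control. In fasted liver they summed to 739, 127 and 199 per 1000000, also without overlap. Without PC-5p-6580_108 the sums of the members were 72.3, 62.1 and 39.7 per 1000000 in control and 239, 61.4 and 146 per 1000000 in fasted liver, and the groups overlapped. The rule for members used name and length alone, but the set was proposed with earlier results of these data known. For that reason no p is given for the sum of the members. In whole liver, a change in the number of cells of a type and a change in RNA per cell cannot be told apart.

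**Figure D2:**
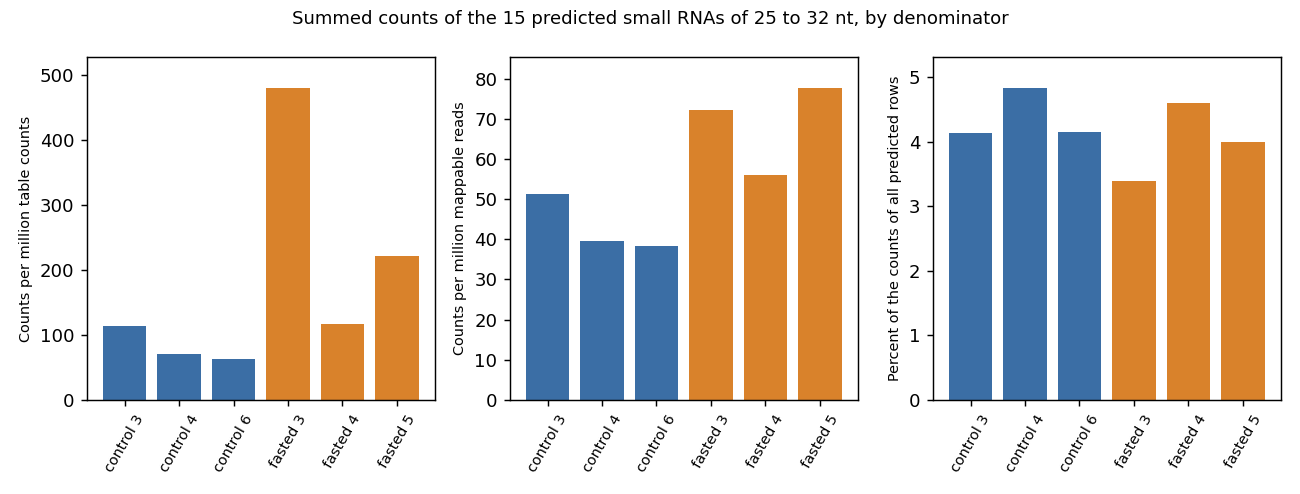
Bars give the summed counts of the 15 members in each library (blue control, orange fasted), per 1000000 table counts, per 1000000 mappable reads and as a percent of the counts of all predicted rows; each axis starts at 0. The fasted libraries lie above the control libraries in the first and second panels, with 117 per 1000000 in fasted replicate 4 against 114 in control replicate 3, and not in the third.

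The higher sum lay in the members that hold no known miRNA. Those 9 summed to 86.2, 36.6 and 53.5 per 1000000 table counts in control and 452, 106 and 165 per 1000000 in fasted liver. The 6 members holding a miRNA summed to 27.7, 33.6 and 9.43 per 1000000 in control and 27.8, 11.5 and 57.1 per 1000000 in fasted liver, with the groups overlapping. Whether both kinds differ in their response was not tested.

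The number of members with a count above 0 was 13, 7 and 9 in the control and 13, 13 and 12 in the fasted libraries. Depth bears on such a number, and control replicate 3 is the deepest library. At the total of the shallowest library, fasted replicate 3, the expected numbers were 8.81, 6.75 and 7.39 in control and 13, 10.6 and 11.1 in fasted liver. No matching number was computed for the other predicted rows or for all rows. The mean share of all predicted rows was also higher in the fasted libraries, 0.741% against 0.191%, although their groups overlapped. Whether the larger number detected is particular to the members was not tested.

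Fitted on all rows, the quasi-likelihood test of edgeR called none of the tested members. The filter on low counts kept 309 rows of the table and 6 of the 15 members, and 0 of the 309 passed a Benjamini-Hochberg adjusted p of 0.05, a background of 0%. An unadjusted p under 0.05 was reached by 2 of the 6 members, both higher in fasted liver, against 26 of the 309 rows, or 8.41%. DESeq2 called 4 of the 309 rows, or 1.29%, and 1 of them was a member, PC-3p-19680_24. The 3 fasted libraries lay above all 3 control libraries in 3 of the 6 members, against 27 of the 309 rows, or 8.74%. The median log2 fold change was 0.77 over the 6 members and 0.01 over all 309 rows. It was 1.22 over the 7 tested predicted rows of 15 to 19 nt and -0.27 over the 24 of 20 to 24 nt. The fasted libraries lay above all controls in 3 of those 7 rows and in 3 of those 24. The 6 tested members are those abundant enough to pass, not all members, and their counts and median are given as a description only. The filter asks for at least 7.62 counts per 1000000 of the library total in any 3 libraries, so a rare row can pass through the group in which it is high. This was so for PC-3p-19680_24, which passed through 0 control and 3 fasted libraries. It is among the 2 members with an unadjusted p under 0.05 and the 3 members whose fasted libraries lay above all controls.

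PC-5p-6580_108, the most abundant member, had 175, 8 and 97 counts in the control and 178, 80 and 91 counts in the fasted libraries. Scaled for depth and composition these were 47.2, 9.77 and 30.4 CPM in control and 147, 62.3 and 63.2 CPM in fasted liver. Each fasted library lay above each control library, with fasted replicate 3 the highest and control replicate 4 the lowest. The means were 29.1 ± 18.8 CPM and 90.9 ± 48.8 CPM (SD, n = 3 each), a log2 fold change of 1.60 (SE 0.60, 95% interval 0.23 to 2.96) (edgeR adjusted p = 0.504), which misses the threshold. Without fasted replicate 3 the log2 fold change was 1.15. It passed the count filter in all 6 libraries.

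PC-3p-19680_24, of 25 nt and labelled 3p, had 26, 1 and 11 counts in the control and 64, 12 and 30 counts in the fasted libraries. Its levels were 7.02, 1.22 and 3.45 CPM in control and 52.9, 9.34 and 20.8 CPM in fasted liver, so every fasted library was above every control library. The log2 fold change was 2.64 (SE 0.75, 95% interval 0.93 to 4.36; edgeR adjusted p = 0.450). It passed the filter through the 3 fasted libraries and through 0 control libraries, so at this level it could only be tested because it was higher in fasted liver. DESeq2 gave 2.75 with an adjusted p of 0.0210, and edgeR without the filter, where 11 of 1325 rows or 0.83% were called, gave 2.51 with an adjusted p of 0.00899. The unadjusted p was 0.0073 (SE 0.75) in the reported edgeR fit, 0.00027 (SE 0.76) with DESeq2 and 4.7e-05 (SE 0.62) with edgeR unfiltered. The estimates and SEs were thus similar in these fits while the p-values were not. Over all alternatives the adjusted p ran from 0.00899 to 0.898. The log2 fold change was 1.87 without fasted replicate 3 and 3.43 with library totals as the only scaling, which moved the median of all rows to 0.59.

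Rows named mir-7641, listed for comparison, made up 0.285, 0.0112 and 0.0406% of all counts in the controls, in the order of replicates 3, 4 and 6. Their shares were 1.78, 0.0413 and 0.326% in the fasted libraries, in the order 3, 4 and 5. Fasted replicate 3 was the highest library for these rows, for PC-3p-19680_24 and for PC-5p-6580_108, and control replicate 4 the lowest for all of them. The share of mappable reads that reached the table was lowest in fasted replicate 3 as well. The part of either in these differences was not tested.

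PC-3p-14858_36 also had its 3 fasted values above its 3 control values, by less. It had 29.5, 8 and 33.5 counts in the control and 21.5, 14 and 23 counts in the fasted libraries, which were 7.96, 9.77 and 10.5 CPM and 17.8, 10.9 and 16.0 CPM. The highest control library and the lowest fasted library nearly touched. The log2 fold change was 0.66 (SE 0.39; edgeR adjusted p = 0.606), and 1.31 with library totals as the scaling.

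PC-5p-10745_56, with the lowest GC share, had 39, 4 and 13 counts in control and 22, 8 and 19 in fasted liver, or 10.5, 4.88 and 4.07 CPM and 18.2, 6.23 and 13.2 CPM. Fasted replicate 4 lay below control replicate 3, so the groups overlapped. The log2 fold change was 0.89 (SE 0.56; edgeR adjusted p = 0.606). It was 1.48 without control replicate 3, 0.60 without control replicate 6 and 1.55 with library totals as the scaling.

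PC-5p-2919_307 was the steadiest of the 6. It had 87, 15 and 67.5 counts in control and 28, 33.5 and 26.5 counts in fasted liver, which scaled to 23.5, 18.3 and 21.2 CPM and 23.2, 26.1 and 18.4 CPM. All 6 libraries lay within these narrow limits and the groups overlapped. The log2 fold change was 0.09 with a 95% interval of -0.72 to 0.89 (edgeR adjusted p = 0.958), an interval that still allows a change of that size in either direction. Its counts are fractional in some libraries, and the sources used do not say by which rule a read that matched several sequences was shared out. Fractional counts occur in 4 of the 15 members, the others being PC-5p-5952_123, PC-3p-14858_36 and PC-5p-25412_17.

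**Figure D3:**
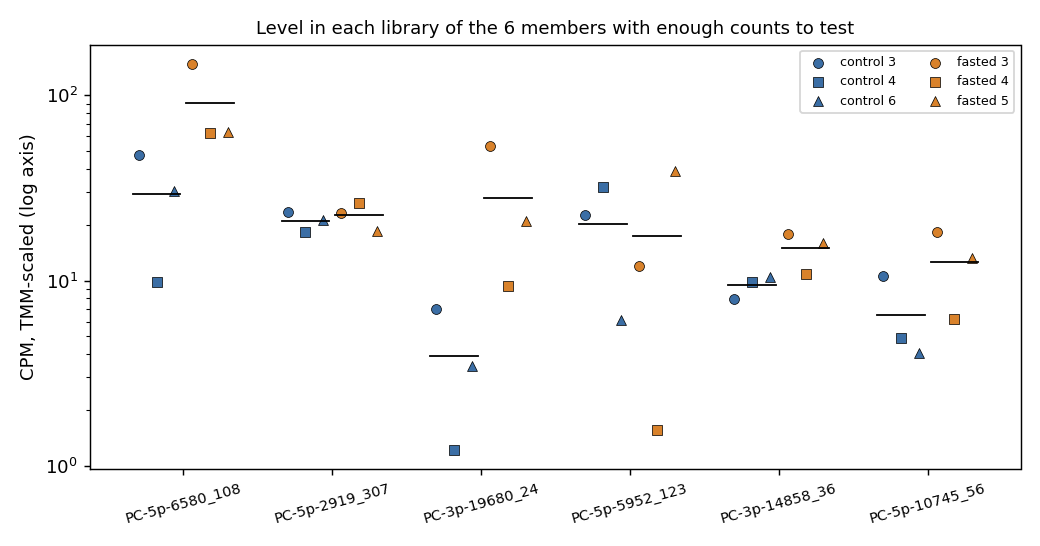
Points give the TMM-scaled CPM of each tested member in each of the 6 libraries on a log axis (blue control, orange fasted, shape by replicate), and short lines the mean of each group. PC-5p-6580_108, PC-3p-19680_24 and PC-3p-14858_36 have all fasted points above all control points, PC-5p-2919_307 stays between 18.3 and 26.1 CPM, and PC-5p-5952_123 spreads from 1.56 to 38.9 CPM.

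PC-5p-5952_123, the extended miR-451 sequence, varied widely between libraries of the same group. The control libraries gave 83.5, 26 and 19.5 counts and the fasted libraries 14.5, 2 and 56 counts. Its levels were 22.5, 31.7 and 6.11 CPM and 12.0, 1.56 and 38.9 CPM, so the fasted libraries held both the highest and the lowest value. The log2 fold change was -0.16 with a 95% interval of -2.31 to 1.99 (edgeR adjusted p = 0.962), and its sign was not stable. It was 0.43 with library totals as the scaling, 0.26 without control replicate 4, 0.14 without fasted replicate 3 and 0.36 without fasted replicate 4.

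The row it contains, dre-miR-451_R-1, had 1917, 2581 and 1501 CPM in control and 1573, 976 and 4236 CPM in fasted liver. Fasted replicate 5 was the highest and fasted replicate 4 the lowest library for both rows. The erythrocyte markers together, which include this contained row, held 0.293, 0.358 and 0.172% of the counts in control and 0.349, 0.114 and 0.898% in fasted liver, with the same libraries at the ends. The part of red blood cell content in the level of PC-5p-5952_123 was not tested.

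Relative to the contained row, which takes out the level of miR-451 itself, the extended sequence came to 1.18, 1.23 and 0.407% in control and 0.762, 0.159 and 0.919% in fasted liver. The means were 0.938% ± 0.460 and 0.613% ± 0.401 (SD, n = 3 each), and an exact two-sided permutation test gave p = 0.5, where 3 libraries against 3 cannot go below 0.1. As a share of both rows together the extended sequence was 1.17% in control replicate 3 (95% Wilson interval 0.945 to 1.44%), 1.21% in control replicate 4 (0.830 to 1.77%) and 0.416% in control replicate 6 (0.269 to 0.642%). These intervals use rounded counts and cover counting error only, which reads copied by PCR can exceed. The counts of both rows are fractional, so the ratio also depends on how the authors divided reads between sequences.

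PC-5p-13516_41, the let-7a sequence with CGTGG before it, was far rarer relative to its miRNA. It had 27, 7 and 18 counts in control and 4, 10 and 7 counts in fasted liver, or 7.29, 8.55 and 5.64 CPM and 3.31, 7.78 and 4.86 CPM, and did not pass the filter. The groups overlapped. It came to 0.0171, 0.0206 and 0.0108% of dre-let-7a in control and 0.0104, 0.0160 and 0.0114% in fasted liver, and an exact two-sided permutation test gave p = 0.3. Over all libraries there were 7138 counts of dre-let-7a for each count of this member, against 115 counts of dre-miR-451_R-1 for each count of PC-5p-5952_123. The Wilson intervals of the let-7a member's share overlapped in all 6 libraries.

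**Figure D4:**
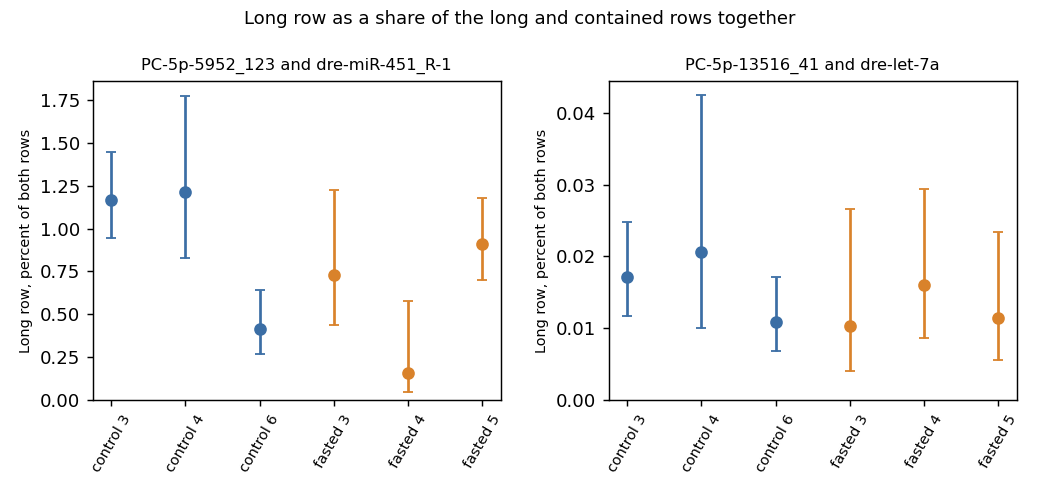
Points give the extended sequence as a percent of its own counts and those of the contained miRNA row together, per library, with 95% Wilson intervals that cover counting error only; the panels have different scales. The extended miR-451 sequence runs from 0.159 to 1.21% with intervals that do not all overlap, and the extended let-7a sequence from 0.0104 to 0.0206% with intervals that do.

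The other 4 members that hold a miRNA were near the limit of detection. PC-5p-25412_17, holding miR-146d-5p of a family induced in innate immune responses, had 8.5 counts in all and was above 0 in 4 libraries. PC-5p-55543_5, holding miR-30a-5p, had 1 count in control replicate 3 and 4 in fasted replicate 5. PC-5p-88033_3 and PC-5p-81106_3, both holding miR-26a-5p, had 3 counts each. At so few counts no difference between groups was detectable at this depth.

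Of the remaining 4 members without a known miRNA, PC-5p-67632_4 had 3, 0 and 0 counts in control and 8, 2 and 3 in fasted liver, and PC-5p-80437_3 had 1, 0 and 2 in control and 5, 1 and 1 in fasted liver. PC-3p-66669_4, the longest member at 31 nt, had 0 counts in every control library and 6, 1 and 0 in the fasted ones. PC-5p-50706_6, the member richest in GC, had 2, 0 and 0 counts in control and 1, 0 and 3 in fasted liver. In 3 of these 4 members fasted replicate 3 held the most counts, although it is the shallowest library. None of the 4 passed the count filter of the reported fit. With at least 1 CPM in 3 libraries as the filter PC-5p-67632_4 was tested and had an edgeR adjusted p of 0.598. Without a filter the 4 had adjusted p-values of 0.409, 0.779, 0.184 and 0.779 in the order above.

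**Figure D5:**
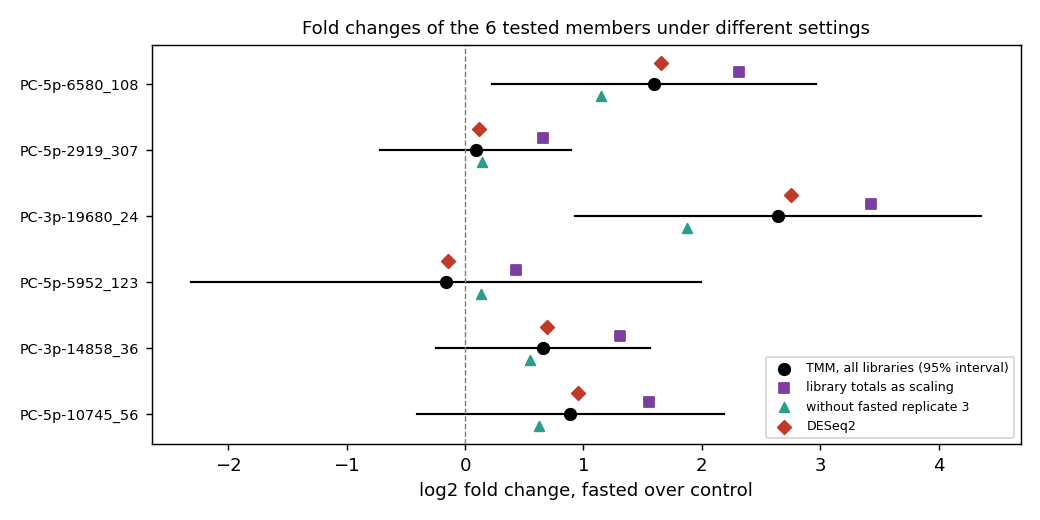
Black points and lines give the log2 fold change of fasted over control liver with its 95% interval for the 6 tested members (edgeR, TMM scaling), beside the values with library totals as the scaling, without fasted replicate 3 and with DESeq2. PC-3p-19680_24 runs from 1.87 to 3.43 across these settings, and PC-5p-5952_123 changes sign, from -0.16 to 0.43 with library totals.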

How the data were processed

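The deposited read summary gives read counts of each library as whole numbers, per the file headers. The deposited sequence table has columns named raw, which hold expected counts of the authors since part of their values are not whole, and columns of normalized signal, for which the authors scaled those counts by 1 size parameter for each library. The submitters' processing notes name Bowtie 1.1.1. Which trimmer, counting program and genome build were used is not given in the sources used.

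Expected counts were rounded, and edgeR 4.0.16 (R 4.3.3; TMM, quasi-likelihood F test, no covariate) was run on the whole table at a Benjamini-Hochberg threshold of 0.05. filterByExpr (minimum count 10, minimum total 15) kept 309 rows. The alternatives were DESeq2 1.42.0, limma 3.58.1 (voom, and log2(signal + 1) on the normalized signal), other scalings and filters, a replicate block and leaving out each library. Exact permutation tests used Python 3.11.15. Simulated data had 200 rows changed between fasted and control liver, and 314 to 359 rows passed the filter and were tested. Of the changed rows among those tested, the edgeR step found on average 2.76% at a 2-fold change, 66.2% at 4-fold and 97.0% at 8-fold. Changed rows that failed the filter are left out of these shares. The shares cover tested rows of every abundance and were not computed at the level of the members. The simulated spread followed the trend over abundance alone, and no library was given a composition of its own, so the shares can be too high for the members. At 8-fold at most 4 unchanged rows were called in a simulation. A member held another row if that row's whole sequence lay within it and had a higher total count. SDs are over libraries. The naming rule took every tested member, the 10 most abundant, up to 5 members with the lowest p in each direction, and members overlapping an abundant row by at least 15 nt. The rest were named to account for all. The set of members, the comparison lists and the alternatives were proposed with earlier results of these data known. The counts of extra bases and the ratios to contained rows were chosen after values had been seen.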

Additional observations from a re-analysis of the deposited data

How the results depend on the processing

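No row of the table and no member was called with edgeR under the 3 other scalings, the filter of 1 CPM in 3 libraries or the replicate block (0 each), nor with limma-voom or limma on the normalized signal. At an unadjusted p under 0.05 there were 26 rows in the reported fit and 59 with the block. In that block control replicate 6 and fasted replicate 5 have no partner, so its group difference rests on replicates 3 and 4 alone. DESeq2 called 4 rows and 1 member, and edgeR without a filter 11 rows and 1 member; that member was PC-3p-19680_24 (log2 fold change 2.75 and 2.51). Leaving out 1 library gave 0 to 1 rows called, the 1 without control replicate 3, and 0 members. The log2 fold changes of PC-5p-6580_108, PC-3p-19680_24, PC-3p-14858_36 and PC-5p-10745_56 were above 0 under all 15 alternatives. These alternatives refit the same libraries, so the shared sign is not independent support. PC-3p-19680_24 also passed the reported filter through 0 control and 3 fasted libraries. PC-5p-10745_56 passed it through 1 control and 2 fasted libraries, and PC-3p-14858_36 through 2 and 3. PC-5p-2919_307 turned to -0.0086 without a filter and to -0.056 without fasted replicate 4 (highest 0.37 over single libraries left out). PC-5p-5952_123 turned to 0.43 with library totals, ran from -1.45 to 0.36 over single libraries left out, being above 0 without control replicate 4 (0.26), fasted replicate 3 (0.14) or fasted replicate 4 (0.36), and was -2.14 with the replicate block. The summed members were higher in fasted liver under each alternative run (87.3 to 268.6 per 1000000 over single libraries left out, lowest without fasted replicate 3) except as a share of all predicted rows, where the difference was -0.37 percentage points. None of these alternatives used TMM scaling for the sum, and none left PC-5p-171_12656 out of the predicted rows. Between groups, the members' count-weighted GC share differed by 0.254 percentage points (-0.206 to 0.657 over single libraries left out), their T-first share by -8.58 but by 0.519 with equal weights, and their 5p share by -6.81 but by 1.12 with equal weights. Against the predicted rows of 20 to 24 nt the GC difference turned to 2.66 with equal weights. Against those of 15 to 19 nt equal weights turned the 5p difference from -8.45 to 34.6 and moved the T-first difference from 13.1 to 10.7. The cause of these changes was not tested. Replicate numbers 3 and 4 are shared by both groups, with correlations of deviations of 0.440 and -0.035, and no label gives them as a pair. Depth limits most members: 6 of 15 were tested with the reported filter, 8 with 1 CPM in 3 libraries, 7 without fasted replicate 3 or 5, and 15 without a filter.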
